A study of Homo sapiens with 24 samples.

Results

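The mRNAs described here encode the enzymes that build cholesterol and fatty acids, with the regulators and transporters that set sterol supply. The 34 genes came from a list of gene names, matched by symbol among 58676 gene rows, and comprised 18 sterol synthesis genes, 5 regulators, 2 sterol transport genes and 9 fatty acid genes. RNA came from HepG2, an established human liver cancer line, in which siRNA lowered 1 of the related RNA-binding proteins IGF2BP1, IGF2BP2 and IGF2BP3 (siIGF2BP1, siIGF2BP2, siIGF2BP3) or matched no gene (siControl). After 48 h of culture, actinomycin D, which blocks transcription, was present at 5 µg/ml for the last 0, 3 or 6 h before harvest. This gave 4 conditions at 3 time points with 2 replicates each, 24 libraries in all. All groups shared the HepG2 background and the transfection, and the knockdowns were transient. Because these are bulk samples, fewer cells of a kind and less RNA per cell cannot be told apart.

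Cholesterol is built from acetyl-CoA through mevalonate, isoprenoids, squalene and lanosterol, and fatty acids are built from the same precursor by elongation and desaturation. Sterol regulatory element-binding proteins (SREBPs), encoded by SREBF1 and SREBF2, are membrane-held transcription factors that SCAP escorts to the Golgi for cleavage when sterols are low and that the INSIG proteins hold back when sterols are high. Hepatocytes are a main site of both pathways, and the cleaved factors bind sterol regulatory elements, commonly beside CCAAT boxes, in the promoters of many pathway genes.

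Promoter windows are shown for SREBF2 and for the members on which the results below turn, so that the shared motifs can be read directly. The windows are from RefSeq promoters on GRCh38, which span 250 bases before to 50 bases after a gene start and matched 30 of the 34 members, and each is printed 5′ to 3′ on the strand that carries the motif. Capitals mark TCACNCCAC, the core of a sterol regulatory element, in the first line and CCAAT in the others.
SREBF2 (chr22:41832960-41832989): gatgacgcgccaTCACCCCACgcaccgctt
SREBF2 (chr22:41832987-41833016): aggctcatctcagCCAATgggcgagcgaag
IDI1 (chr10:1048956-1048985): ccgggccgcgcagCCAATcgctcgcgccag
MSMO1 (chr4:165327581-165327610): caactgcacagaCCAATcaccgcgccgaga
MVK (chr12:109573736-109573765): tacttcaggccagCCAATcagagcgcgcga
DHCR7 (chr11:71448470-71448499): caggctcctcgaCCAATcacggggcgcgga

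Some genes have several promoters, and the 30 members had 41. Searched on both strands, CCAAT was in 27 of the 41 and in 34.6% of all 35116 promoters. Counted by gene, 23 of the 30 members had it in any promoter, against 39.7% of all 27305 genes with a promoter. The motif TCACNCCAC was in 1 of the 41, that of SREBF2 at 133 bases before its start, and in 1.13% of all promoters. The motifs cannot overlap beyond an end base, and INSIG2 had neither in its window. These matches describe letters and say nothing of binding in these cells.

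Depth was 31843248 to 74252042 gene reads per library, of which the 34 mRNAs took 0.651% to 0.784%, with 50889 to 119088 reads from ERCC synthetic spike-in RNA. Each siRNA lowered its target mRNA, with log2 fold changes over the 3 time points of −2.50 ± 0.0189 (SE) for IGF2BP1, −2.12 ± 0.0235 for IGF2BP2 and −1.79 ± 0.0266 for IGF2BP3. Of 8 liver-line markers, 8 passed the filter, with a summed level of 26663 to 50937 CPM (reads of a gene scaled to a common library size). Of 6 markers of other cells, 2 passed, KRT19 and PECAM1, while PTPRC, COL3A1 and CD68 were at or near 0. The summed level of the other-cell markers, almost all KRT19, was 113 to 140 CPM in siControl libraries and 90.6 to 106 CPM in siIGF2BP3 libraries. It was 113 to 132 CPM in siIGF2BP1 libraries and 128 to 162 CPM in siIGF2BP2 libraries.

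In siControl cells at 0 h the pathway mRNAs spanned a wide range of levels per kilobase of transcript. The stearoyl-CoA desaturase SCD was highest at 313 ± 5.95 CPM per kilobase (SD, n = 2, as for the levels that follow). The cytosolic thiolase ACAT2 followed at 188 ± 0.196 CPM per kilobase, then the fatty acid synthase FASN at 144 ± 2.58 and the squalene synthase FDFT1 at 128 ± 1.49. Most neighbours in this order did not overlap between replicates, but EBP and SQLE did, as did FADS2 and MSMO1, and ACACA, INSIG2, MVK and LSS in a chain. Among genes above the filter the lowest were the elongase ELOVL6 at 4.55 and the lanosterol demethylase CYP51A1 at 1.41 CPM per kilobase. INSIG1, an anchor that retains SCAP, had 0 to 6 reads per library, 27 in all and 0 in 11 of 24 libraries, and was the member that failed the filter. Its exons overlapped no other gene in the GENCODE v44 annotation. Reads were counted on v29, in which overlaps were not examined, and the cause of the low count was not tested. The INSIG pair therefore could not be compared, and 33 of 34 members entered the tests. In the v44 annotation, same-strand exon overlap with other genes covered 68.2% of CYP51A1 and 36.4% of EBP. HSD17B7, FDPS and SCD have pseudogene copies, so counts of all these genes are uncertain.

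To determine how each knockdown affected steady-state levels, the 33 mRNAs were compared with siControl at 0 h. Each knockdown left most of the pathway within the spread of the libraries and moved 1 gene past a log2 change of 0.3, a different one each time. INSIG2 fell after IGF2BP1 knockdown, the isomerase IDI1 fell after IGF2BP2 knockdown, and the sterol demethylase MSMO1 fell after IGF2BP3 knockdown. In edgeR's quasi-likelihood test with an adjusted p under 0.05, siIGF2BP1 raised 4 and lowered 4 of the 33 members, where 9.43% of all tested genes were higher and 6.5% lower. siIGF2BP2 raised 3 and lowered 3, where 6.65% of all tested genes were higher and 5.47% lower. siIGF2BP3 raised 1 and lowered 11, or 33.3% of the members, where 4.93% of all tested genes were higher and 4.47% lower. When 1 library was left out the calls in either direction numbered 3 to 5 of 8 in siIGF2BP1, 2 to 4 of 6 in siIGF2BP2 and 4 to 6 of 12 in siIGF2BP3 cells. These comparisons share the siControl libraries. When levels were scaled to the spike-in instead of by TMM (trimmed mean of M-values, which assumes that most genes hold their level), 0 members were higher and 1 was lower in each knockdown. That 1 gene was INSIG2, IDI1 and MSMO1, respectively. With that scaling 1.93% of all tested genes were higher and 3.01% lower in siIGF2BP1 cells, 4.29% and 1.29% in siIGF2BP2 and 2.95% and 0.632% in siIGF2BP3. The median of all tested genes was then −0.02, 0.10 and 0.09, and the siControl replicates at 0 h held 761.6 and 666.4 gene reads per ERCC read.

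**Figure D1:**
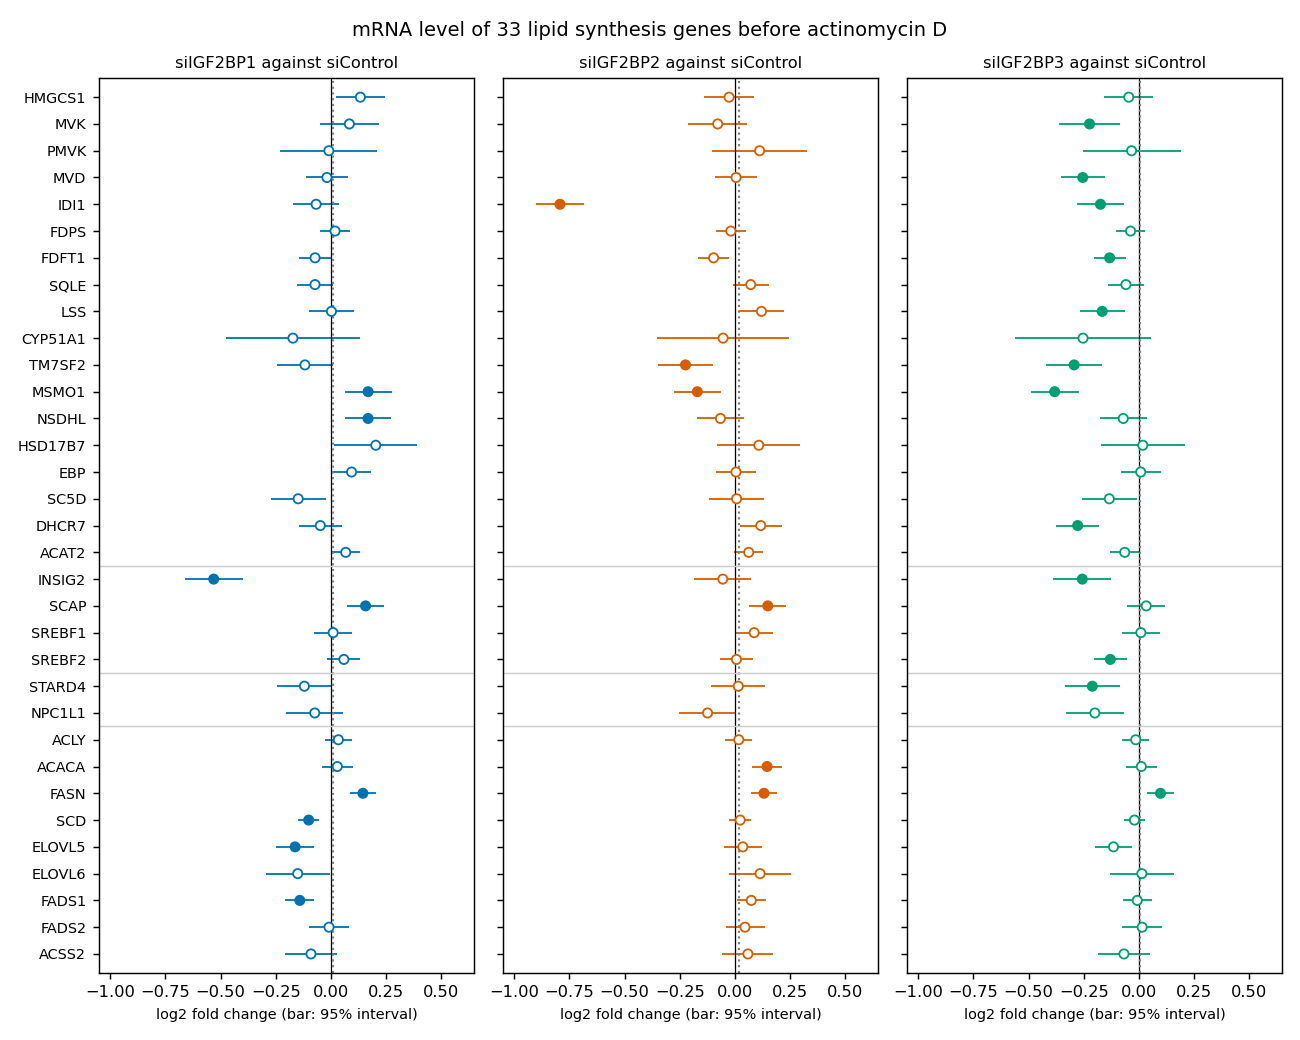
Log2 fold change at 0 h against siControl (x axis, bars are 95% intervals) of 33 lipid synthesis mRNAs (y axis) in each knockdown, TMM scaled, with filled points for an adjusted p under 0.05 and a dotted line at the median of all tested genes. INSIG2, IDI1 and MSMO1 stand farthest left in the siIGF2BP1, siIGF2BP2 and siIGF2BP3 panels, and 25 of 33 members lie below 0 in the siIGF2BP3 panel, against 15 of 33 with spike-in scaling.

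IDI1 (chr10:1039152-1049119, minus strand, GRCh38) encodes the isomerase that interconverts the isoprenoid building blocks made from mevalonate. Its level at 0 h was 122.8 and 121.8 CPM in the siControl libraries and 69.9 and 71.3 CPM in the siIGF2BP2 libraries. The groups were far apart, and the siIGF2BP2 level was 0.577-fold that of siControl, a log2 fold change of −0.79 ± 0.0545 (SE) with an edgeR adjusted p of 5.19e-14. The call held in 12 of 12 settings, with log2 fold changes of −0.81 to −0.71. In siIGF2BP1 cells IDI1 was at 113.4 and 120.4 CPM, a log2 fold change of −0.07 that did not pass the test (edgeR adjusted p = 0.476). In siIGF2BP3 cells it was at 103.0 and 114.1 CPM, a log2 fold change of −0.17 ± 0.0537 (edgeR adjusted p = 0.0321) that held in 1 of the 4 fits that left out a library. The siIGF2BP3 call was also lost with spike-in scaling (edgeR adjusted p = 0.652). After actinomycin D the gap in siIGF2BP2 cells persisted, at 115.6 and 120.3 CPM in siControl against 61.4 and 60.3 CPM at 3 h, and at 106.6 and 113.1 against 48.3 and 53.5 CPM at 6 h. An exon overlap of 15.0% with an antisense gene in the v44 annotation makes part of the IDI1 count uncertain, since the strand setting of the counting was not stated.

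INSIG2 (chr2:118088452-118110997, plus strand) encodes the second of the proteins that retain SCAP and the SREBPs in the endoplasmic reticulum. At 0 h it was at 46.0 and 43.4 CPM in siControl libraries and at 29.5 and 32.6 CPM in siIGF2BP1 libraries. All siIGF2BP1 values lay below all siControl values, the log2 fold change was −0.53 ± 0.0674 (edgeR adjusted p = 1.58e-07), and the call held in 12 of 12 settings with values of −0.60 to −0.46. After 3 and 6 h of actinomycin D the log2 fold change was −0.69 and −0.63 in siIGF2BP1 cells. In siIGF2BP2 libraries INSIG2 was at 42.3 and 43.8 CPM at 0 h, which overlapped siControl (log2 fold change −0.05, edgeR adjusted p = 0.703). In siIGF2BP3 libraries it was at 40.3 and 34.3 CPM, a log2 fold change of −0.26 ± 0.0668 (edgeR adjusted p = 0.00907). That call held in 2 of the 4 fits without a library and was lost with spike-in scaling (edgeR adjusted p = 0.348). The log2 fold change in siIGF2BP3 cells was −0.04 at 3 h and −0.02 at 6 h, neither of which passed the test.

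MSMO1 (chr4:165327667-165343164, plus strand) encodes an oxygenase that acts in the removal of methyl groups from lanosterol-derived sterols. At 0 h it was at 86.4 and 81.7 CPM in siControl libraries and at 61.9 and 67.2 CPM in siIGF2BP3 libraries. The groups did not overlap, and the log2 fold change of −0.38 ± 0.0556 (edgeR adjusted p = 5.61e-06) kept its call in 12 of 12 settings, with values of −0.44 to −0.30. The siIGF2BP2 libraries were also below siControl, at 70.5 and 79.0 CPM (log2 fold change −0.17 ± 0.0546, edgeR adjusted p = 0.034), a call held in 2 of the 4 fits without a library. The siIGF2BP1 libraries were above siControl, at 94.4 and 94.5 CPM (log2 fold change 0.17 ± 0.0544, edgeR adjusted p = 0.0283), a call held in 1 of those 4 fits. Neither of these smaller changes passed the test with spike-in scaling. At 3 and 6 h the log2 fold change of MSMO1 in siIGF2BP3 cells was −0.66 and −0.58.

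**Figure D2:**
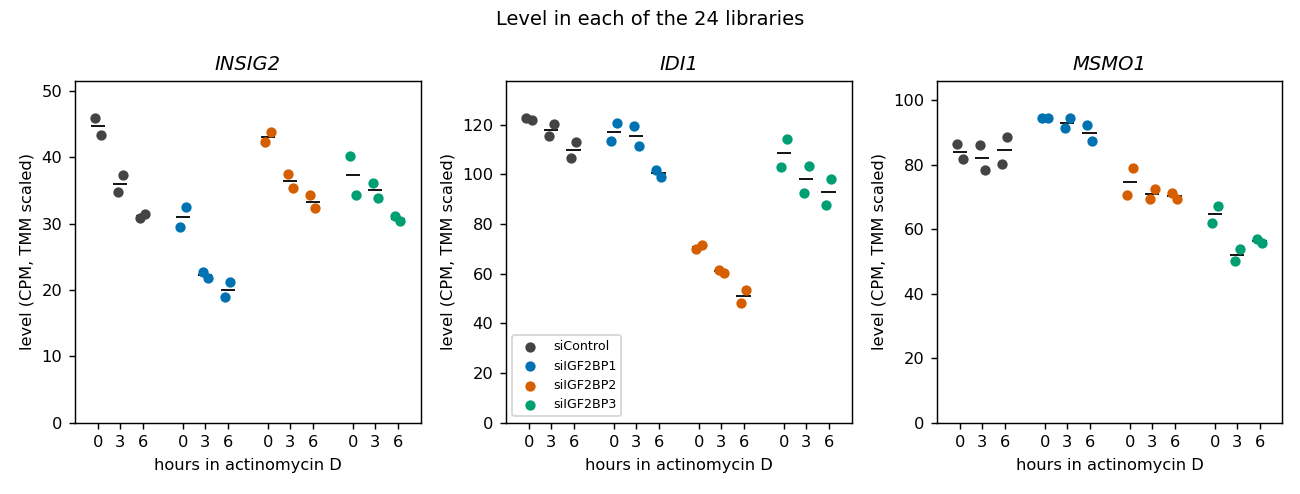
Level of INSIG2, IDI1 and MSMO1 (y axis, CPM with TMM scaling) in each of 24 libraries by hours in actinomycin D (x axis) and condition, with points for libraries and bars for the mean of 2 replicates. INSIG2 is lowest in siIGF2BP1 cells (29.5 and 32.6 CPM at 0 h), IDI1 in siIGF2BP2 cells (69.9 and 71.3 CPM) and MSMO1 in siIGF2BP3 cells (61.9 and 67.2 CPM).

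The knockdowns were then compared with each other at 0 h, since the difference between a pair of them needs its own test. IDI1 was higher in siIGF2BP1 than in siIGF2BP2 cells, with a log2 difference of 0.73 ± 0.055 (edgeR adjusted p = 4.77e-13), and lower in siIGF2BP2 than in siIGF2BP3 cells, at −0.62 ± 0.0552 (edgeR adjusted p = 7.12e-11). INSIG2 was lower in siIGF2BP1 than in siIGF2BP2 cells, at −0.48 ± 0.0679 (edgeR adjusted p = 1.24e-06). MSMO1 was higher in siIGF2BP1 than in siIGF2BP3 cells, at 0.55 ± 0.0559 (edgeR adjusted p = 1.93e-09). Against siIGF2BP3, 9 members were higher and 3 lower in siIGF2BP1 cells, where 8.31% and 6.0% of all tested genes were, and 10 were higher and 1 lower in siIGF2BP2 cells, where 4.91% and 4.28% were. Against siIGF2BP2, 4 members were higher and 8 lower in siIGF2BP1 cells, where 9.65% and 9.04% of all tested genes were. With spike-in scaling the splits, in the same order, were 1 higher and 2 lower (0.746% and 5.92% of all tested genes), 2 higher and 1 lower (1.45% in each direction), and 1 higher and 8 lower (1.81% and 10.3%).

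After IGF2BP3 knockdown the lower calls were mostly sterol synthesis genes. Of the 18 sterol synthesis members 8 were lower and 16 lay below 0, with a median log2 fold change of −0.13, but with spike-in scaling 1 was lower, 10 lay below 0 and the median was −0.05. Among the steps of the pathway, the mevalonate kinase MVK had a log2 fold change of −0.22 (edgeR adjusted p = 0.0343) and the decarboxylase MVD one of −0.25 ± 0.0502 (edgeR adjusted p = 0.000504). The squalene synthase FDFT1 was lower, at −0.13 (edgeR adjusted p = 0.0158), as was the lanosterol synthase LSS, at −0.17 (edgeR adjusted p = 0.0352). The sterol reductases TM7SF2 and DHCR7 were lower, at −0.29 ± 0.0656 (edgeR adjusted p = 0.00215) and −0.28 ± 0.0504 (edgeR adjusted p = 0.000165). DHCR7, which catalyses a closing reduction to cholesterol, was at 69.4 and 68.4 CPM in siControl and 56.3 and 57.4 CPM in siIGF2BP3 libraries, and MVD was at 58.7 and 56.0 against 46.4 and 49.9 CPM. TM7SF2 was at 26.9 and 27.0 CPM in siControl against 21.8 and 22.1 CPM in siIGF2BP3 libraries. In none of these did the groups overlap, and DHCR7, MSMO1, MVD and TM7SF2 were the 4 members called in every fit without 1 of the 4 libraries. With spike-in scaling MSMO1 kept its call, but DHCR7, MVD and TM7SF2 did not (edgeR adjusted p = 0.237, 0.334 and 0.289).

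Of the 4 tested regulators, SREBF2 was lower in siIGF2BP3 cells, at 116.6 and 113.5 CPM against 124.2 and 127.7 CPM in siControl (log2 fold change −0.13 ± 0.0384, edgeR adjusted p = 0.0241), with INSIG2 as above. Its partner SREBF1 was at 99.8 and 97.6 CPM against 99.4 and 97.0 CPM, so those groups overlapped. The sterol carrier STARD4 was lower, at −0.21 (edgeR adjusted p = 0.027), while NPC1L1, a sterol uptake transporter, was at −0.20 and did not pass (edgeR adjusted p = 0.0527). The calls for SREBF2 and STARD4, like those for MVK, FDFT1 and LSS, were lost with spike-in scaling and in at least 3 of the 4 fits that left out a library. KRT19-dominated other-cell markers were lower in the same siIGF2BP3 libraries (90.6 to 106 CPM), and their part in these results was not tested.

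Fatty acid synthesis mRNAs moved little. FASN was at 1234 and 1203 CPM in siControl libraries, 1329 and 1366 in siIGF2BP1, 1341 and 1329 in siIGF2BP2 and 1302 and 1306 in siIGF2BP3. It lay above siControl in every knockdown library, with log2 fold changes of 0.15 (edgeR adjusted p = 0.000628), 0.13 (0.00251) and 0.10 (0.0363), and the last call held in 5 of 12 settings. The acetyl-CoA carboxylase ACACA was raised in siIGF2BP2 cells (log2 fold change 0.15, edgeR adjusted p = 0.00366) and did not pass the test in the other knockdowns. After IGF2BP1 knockdown the desaturases SCD and FADS1 and the elongase ELOVL5 were lower, at −0.10 (edgeR adjusted p = 0.00341), −0.14 (0.0025) and −0.16 (0.00725). ELOVL5 was at 109.3 CPM in both siControl libraries and at 98.9 and 96.3 CPM in siIGF2BP1 libraries, while its relative ELOVL6 was at 30.3 and 29.5 against 27.3 and 26.5 CPM and did not pass the test. FADS1 was at 221.6 and 212.8 CPM against 191.5 and 202.8 CPM, and its neighbour FADS2 was at 115.8 and 119.9 against 111.4 and 123.6 CPM, which overlapped. The remaining calls were in SCAP, the SREBP escort, which was raised in siIGF2BP1 and siIGF2BP2 cells (log2 fold changes 0.16 and 0.15), in NSDHL, raised in siIGF2BP1 cells (0.17), and in TM7SF2, lowered in siIGF2BP2 cells (−0.22). Apart from FASN in siIGF2BP1 (4 of 4) and siIGF2BP2 cells (3 of 4), the calls in this paragraph held in at most 2 of the 4 fits without a library. NSDHL in siIGF2BP1, SCAP in siIGF2BP2 and FASN in siIGF2BP3 cells held in 0 of 4. With spike-in scaling 0 of the calls in this paragraph passed. HMGCS1, PMVK, FDPS, SQLE, CYP51A1, HSD17B7, EBP, SC5D, ACAT2, SREBF1, NPC1L1, ACLY, ELOVL6, FADS2 and ACSS2 passed the test in no knockdown at 0 h.

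The same contrasts after actinomycin D gave more calls among members and among all genes. These levels use TMM scaling and are relative to the other mRNAs of the same library. The contrasts at 3 and 6 h were not run with spike-in scaling, which at 0 h removed most of the calls. At 3 h in siIGF2BP1 cells 4 members were higher and 9 lower, where 10.6% and 10.2% of all tested genes were. In siIGF2BP2 cells 5 were higher and 5 lower (7.51% and 9.47% of all tested genes), and in siIGF2BP3 cells 0 were higher and 17 lower (7.4% and 8.62%). At 6 h the members higher and lower numbered 4 and 7 in siIGF2BP1 cells (13.5% and 10.8% of all tested genes), 3 and 7 in siIGF2BP2 cells (8.25% and 10.4%) and 1 and 12 in siIGF2BP3 cells (9.44% and 9.04%). MVK moved in opposite directions, with log2 fold changes at 3 and 6 h of 0.29 and 0.40 in siIGF2BP1 cells and of −0.30 and −0.33 in siIGF2BP3 cells. SQLE, the squalene epoxidase, was called higher at 6 h in siIGF2BP2 (0.40) and siIGF2BP3 cells (0.27), although it had not passed the test at 0 h.

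The loss of each mRNA after transcription was blocked was next measured in siControl cells, with levels scaled to the spike-in and loss given as a slope, the log2 change over 6 h. Loss ranged widely over the pathway, from mRNAs that were mostly gone at 6 h to mRNAs with no called loss. The slope was below 0 with an adjusted p under 0.05 for 26 of the 33 members, where 80.3% of all tested genes were called lower, and the members' median slope was −0.41 against −0.88 for all genes. The direction depends on the spike-in, since TMM scaling, which sets the median gene near 0, called 22 members higher and 6 lower, and library size scaling called 16 higher and 10 lower. Slopes are therefore given beside the median of all genes. The share of 80.3% is for spike-in scaling, so the member counts with the other scalings cannot be set against it.

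The fastest loss was that of the squalene epoxidase SQLE, at −2.64 ± 0.191, and of HSD17B7, a sterol ketone reductase, at −2.61 ± 0.16. Relative to the mean at 0 h, SQLE in siControl libraries was at 52.6% and 50.4% at 3 h and at 17.2% and 14.7% at 6 h. HSD17B7 was at 48.8% and 48.7% at 3 h and at 16.7% and 15.8% at 6 h. In both the replicates lay close together at each time and the time points did not overlap. MVK had a slope of −2.03 ± 0.128 and was at 48.7% and 43.9% at 3 h and at 26.5% and 22.5% at 6 h. INSIG2 had a slope of −1.39 ± 0.114 and was at 56.7% and 60.6% at 3 h and at 39.3% and 36.8% at 6 h. ELOVL6 (−1.13 ± 0.125) and IDI1 (−1.03 ± 0.104) followed, and all 6 of these slopes were also below 0 with TMM scaling.

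**Figure D3:**
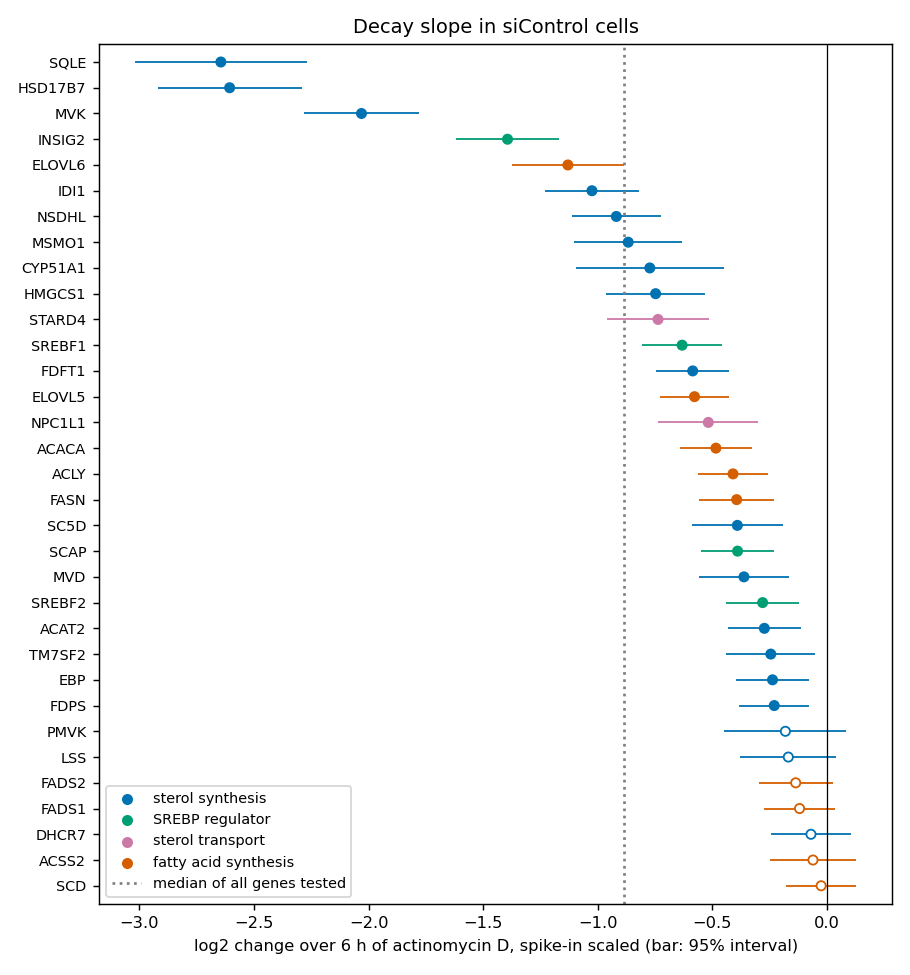
Decay slope in siControl cells (x axis, log2 change over 6 h with spike-in scaling, bars are 95% intervals) of 33 members (y axis), with filled points for an adjusted p under 0.05 and a dotted line at the median of all tested genes, −0.88. Slopes run from −2.64 (SQLE) to −0.03 (SCD), and with TMM scaling 22 of them were above 0 and called.

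At the other end, 7 members showed no loss that passed the test, namely the phosphomevalonate kinase PMVK, LSS, FADS2, FADS1, DHCR7, the acetyl-CoA synthetase ACSS2 and SCD. DHCR7 was at 96.9% and 107% of its 0 h mean at 3 h and at 102% and 88.6% at 6 h, so its time points overlapped. FADS1 was at 95.1% and 88.9% and FADS2 at 96.2% and 85.7% at 6 h, and SCD was at 102% and 94.5%. FDPS, the farnesyl diphosphate synthase, was at 103% and 100% at 3 h and at 87.7% and 82.8% at 6 h, a slope of −0.23 ± 0.0784 (edgeR adjusted p = 0.0104). Of the related pairs, ELOVL5 was at 67.6% and 66.3% at 6 h against 47.9% and 43.4% for ELOVL6, and SREBF1 was at 70.6% and 58.4% against 87.1% and 77.5% for SREBF2, so neither pair overlapped. FADS1 and FADS2, which sit side by side on the chromosome, did overlap.

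Expressed as half-lifetimes under first-order decay, HSD17B7 had 2.56 h in siControl cells (2.49 to 2.63 h over the 8 combinations of replicates), SQLE 2.63 h (2.38 to 2.94 h), MVK 2.82 h (2.55 to 3.15 h) and INSIG2 4.09 h (3.47 to 5.06 h). The median was 12.6 h over the 29 members with a fall, against 6.18 h over all genes with a fall, and 6 members were shorter than that. FDPS gave 63.8 h with a fall in 5 of 8 combinations. FADS1, FADS2 and DHCR7 fell in 4 of 8, so their half-lifetimes could not be measured in a 6 h course, and SCD, ACSS2, LSS and PMVK showed no mean fall.

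First-order decay was checked by comparing late with early loss. SQLE kept 51.5% of its level from 0 to 3 h but 30.9% from 3 to 6 h, a difference of −0.74 ± 0.146 on the log2 scale (edgeR adjusted p = 1.05e-05). This was the 1 member called, where 1.64% of all tested genes were called in that direction and 12.6% in either, and SQLE kept its call in all 10 settings run. With TMM scaling 18 members were called in that direction, where 18.2% of all tested genes were, so the count of members depends on the scaling. Its half-lifetime is thus an average over a course that was not first-order. Of the 33 members 27 had a value below 0, with a median of −0.18 against −0.03 for all genes.

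Loss was also measured within each knockdown. The slope was below 0 with an adjusted p under 0.05 for 17 members in siIGF2BP1 cells, 20 in siIGF2BP2 and 19 in siIGF2BP3, where 69.1%, 71.3% and 67.2% of all tested genes were called lower. HSD17B7 had half-lifetimes of 2.72, 2.53 and 2.74 h in siIGF2BP1, siIGF2BP2 and siIGF2BP3 cells. SQLE had 3.10, 3.14 and 3.29 h, MVK 3.77, 3.23 and 2.88 h, and INSIG2 3.98, 4.85 and 6.42 h. Among the 20, 22 and 20 members with a fall in every replicate combination, the range over combinations lay above that of siControl for 2, 1 and 1 and below it for 0. These were MVK (3.36 to 4.24 h) and NSDHL (9.12 to 11.6 h) in siIGF2BP1 cells, SQLE (2.98 to 3.30 h) in siIGF2BP2 cells and INSIG2 (5.44 to 7.89 h) in siIGF2BP3 cells. Over all genes with a fall in both conditions the half-lifetime was longer than in siControl for 81.5% in siIGF2BP1, 62.7% in siIGF2BP2 and 84.6% in siIGF2BP3 cells. By that measure 21 of 25, 15 of 29 and 22 of 24 members were longer. The counts of separate ranges have no share of all genes beside them and cannot be set against these percentages.

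**Figure D4:**
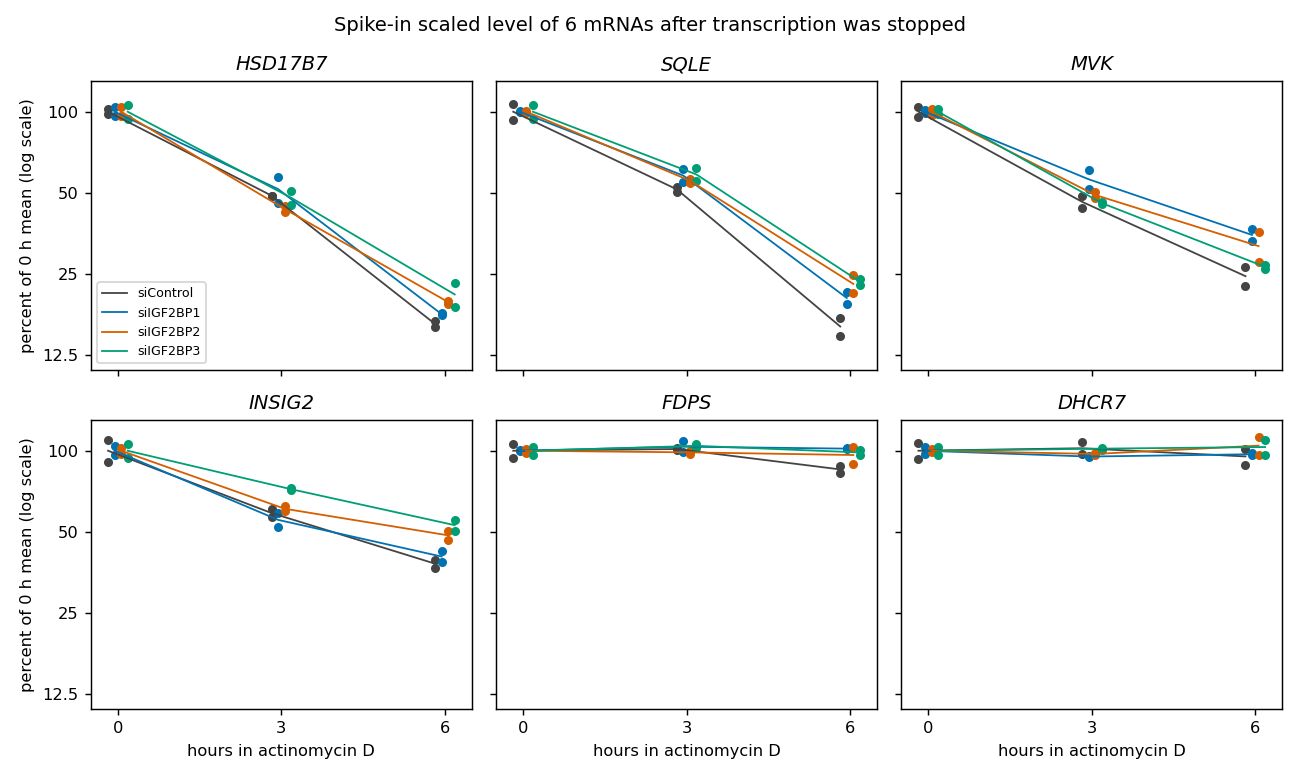
Level left (y axis, percent of the mean at 0 h, log axis, spike-in scaled) by hours in actinomycin D (x axis) for HSD17B7, SQLE, MVK, INSIG2, FDPS and DHCR7 in 4 conditions, with points for libraries and lines through the mean of 2 replicates. SQLE in siControl cells bends downward after 3 h to 17.2% and 14.7% at 6 h, while DHCR7 stays near its starting level.

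Whether a knockdown changed the loss was tested as a difference in slope from siControl, where a positive value is slower loss. No member passed in any knockdown. In edgeR 0 of 33 were called each time, where 0.0152%, 0.0% and 0.0228% of all tested genes were called in siIGF2BP1, siIGF2BP2 and siIGF2BP3 cells, and DESeq2 also called 0. At an unadjusted p under 0.05, 5, 3 and 4 members were counted, where 10.9%, 6.82% and 16.1% of all tested genes were. The median difference over members was 0.19, 0.15 and 0.19 against 0.19, 0.17 and 0.22 for all genes, so the members sat with the rest. With TMM scaling the members' medians were −0.01, −0.05 and −0.03. They also moved with 1 siControl library, from 0.14, 0.08 and 0.14 without siControl 0 h replicate 1 to 0.28, 0.24 and 0.30 without replicate 2.

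The largest slope differences were in short-lived mRNAs and in the low-count CYP51A1. In siIGF2BP1 cells CYP51A1 differed by 0.59 ± 0.234 (edgeR adjusted p = 0.427, 95% interval 0.13 to 1.05), with 90.6% and 85.9% left at 6 h against 57.5% and 59.3% in siControl. Its level was low, between 3.50 and 6.19 CPM over all libraries. MVK differed by 0.51 ± 0.178 (edgeR adjusted p = 0.423), with 36.6% and 33.1% left at 6 h against 26.5% and 22.5% in siControl. These groups did not overlap. INSIG2 differed by 0.47 ± 0.162 in siIGF2BP3 cells (edgeR adjusted p = 0.277), with 55.5% and 50.3% left at 6 h against 39.3% and 36.8% in siControl. In siIGF2BP2 cells MVK differed by 0.37 and INSIG2 by 0.35, and in siIGF2BP3 cells HSD17B7 differed by 0.35, none of which passed. SQLE differed by 0.52 ± 0.261 in siIGF2BP2 cells (edgeR adjusted p = 0.643) and by 0.55 ± 0.263 in siIGF2BP3 cells (edgeR adjusted p = 0.305). It had 21.2% and 24.7% left at 6 h in siIGF2BP2 and 23.9% and 22.8% in siIGF2BP3 cells, all above both siControl libraries. When the change from 0 to 6 h was tested alone, which does not assume a straight line, SQLE was called in both, at 0.53 ± 0.121 (edgeR adjusted p = 0.00668) and 0.55 ± 0.122 (edgeR adjusted p = 0.00451), and was the 1 member called in each. In siIGF2BP1 cells that change was 0.35 ± 0.122 (edgeR adjusted p = 0.126). The spread in this test was in effect pooled over genes, so these p-values do not rest on the replicates of SQLE alone. The shares of all tested genes given for the slope test do not apply to this test. Whether 1 member called is more than among all genes is therefore not shown.

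**Figure D5:**
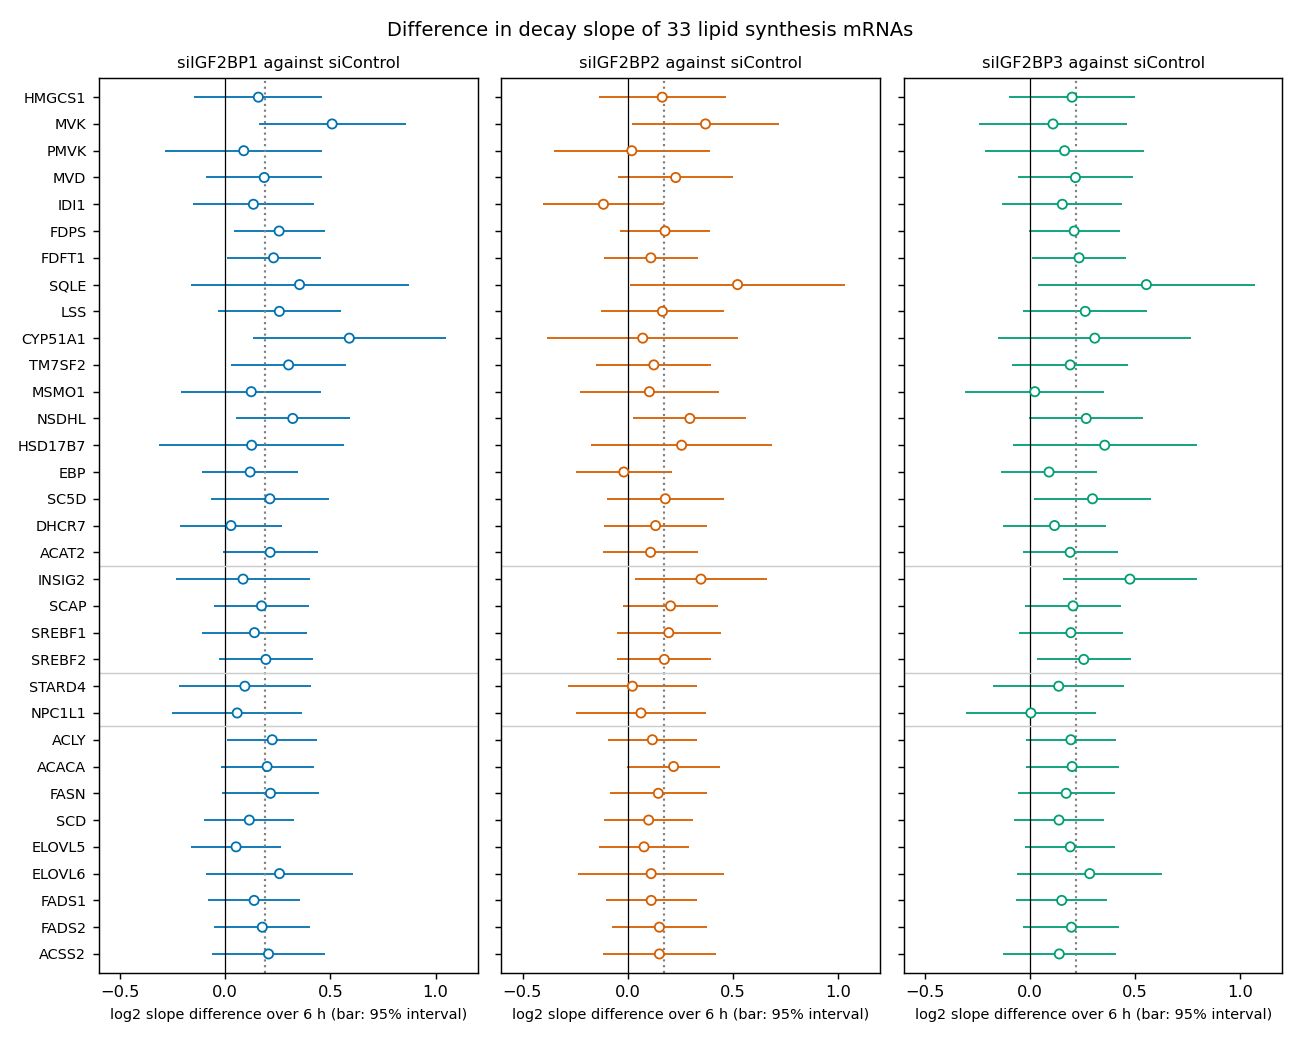
Difference in decay slope from siControl (x axis, log2 over 6 h with spike-in scaling, bars are 95% intervals, positive is slower loss) of 33 members (y axis) in each knockdown, with a dotted line at the median of all tested genes. All points are open because 0 members passed the test, and the members gather at the dotted lines (0.19, 0.17 and 0.22), whereas with TMM scaling the members' medians were −0.01, −0.05 and −0.03.

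The 3′ untranslated regions of the members were examined as a feature that the list did not use. The element ATTTA, a core of AU-rich destabilizing sequences, was present in 22 of 33 members (66.7%) and in 72.7% of 11361 tested coding genes. The 8 members with the fastest loss had a median AU content of 61.7%, against 49.8% in the other 25 and 57.7% in all genes. Across the 33 genes, which share the same libraries and are not independent replicates, slope and AU content had a Spearman rho of −0.45 and a Pearson r of −0.35, given as a description. For copies of ATTTA the rho was −0.37 and the r −0.06. For the length of the region they were −0.11 and 0.04. AU content thus had the largest coefficients here, but the differences between features were not tested and no correlation over all genes is given. Among the fastest mRNAs, SQLE (70.7%) and INSIG2 (66.3%) lay above the AU content of all genes. HSD17B7 (55.3%) and MVK (40.6%) lay below it.

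Other genes of the pathway were read at 0 h from lists kept apart from the members, in which 44 of 47 genes passed the filter. In siIGF2BP1 cells 10 were higher and 4 lower, where 9.43% and 6.5% of all tested genes were. In siIGF2BP2 cells 7 were higher and 1 lower (6.65% and 5.47% of all tested genes), and in siIGF2BP3 cells 4 were higher and 5 lower (4.93% and 4.47%). With spike-in scaling these splits were 4 and 3, 5 and 1, and 3 and 1, and the shares of all tested genes were those given above for that scaling. SOAT2, which esterifies cholesterol in liver cells, was lower in all 3 knockdowns, with log2 fold changes of −0.55, −0.64 and −0.79, and was lower with spike-in scaling in all 3 as well. MBTPS1, a protease that cleaves SREBPs, was higher in all 3, by 0.28, 0.33 and 0.22, and MBTPS2, the protease of the second cut, was higher in siIGF2BP1 (0.41) and siIGF2BP2 cells (0.27). UBE2G2, a ubiquitin-conjugating enzyme of sterol-controlled degradation, was higher by 0.25, 0.28 and 0.23. The liver X receptor gene NR1H2 was higher in siIGF2BP1 (0.34) and lower in siIGF2BP3 cells (−0.34), and neither call held with spike-in scaling. With that scaling MBTPS1 and UBE2G2 kept their calls in siIGF2BP2 and siIGF2BP3 cells but not in siIGF2BP1 cells, and MBTPS2 kept both of its calls. ACSL1, an acyl-CoA synthetase, was higher in siIGF2BP1 (0.39) and siIGF2BP2 cells (0.28), with either scaling.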

How the data were processed

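The authors added ERCC RNA to total RNA at 0.02 µl per 1 µg, selected polyadenylated RNA, made stranded single-end libraries, trimmed reads with Trimmomatic 0.39, aligned them to hg38 with HISAT2 2.1.0 and counted reads per GENCODE v29 gene with HTSeq. The deposited values are raw counts for 58721 gene rows, 92 ERCC rows and 5 summary rows per library. The counting settings for strand, overlaps and multi-mapping were not stated. The summary rows (13.55% to 17.06% of counts) and 45 Y-copy pseudoautosomal rows stayed out. Symbols were matched through Ensembl identifiers, with 469 unmatched, and coordinates are from GENCODE v44.

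The 13136 genes that reached a CPM of 1 in 2 or more libraries were tested with edgeR 4.0.16 in R 4.3.3 (two-sided quasi-likelihood test, Benjamini-Hochberg adjusted over all tested genes). Abundance used TMM scaling and 12 group means (12 residual degrees of freedom). Decay used ERCC totals and a slope per condition (16 residual degrees of freedom). Early against late loss, the change from 0 to 6 h and spike-in scaled abundance used ERCC totals and 12 group means. In that fit the p-values match a normal distribution, so the spread was in effect pooled over genes. Intervals are 1.96 SE on either side, for 95%. K was the mean of the rates from 0 to 3 h and 0 to 6 h, and the half-lifetime ln2/K. Tables used Python 3.11.15 and pandas 2.3.3, and the fits were tested on simulated data. Alternatives were other scalings, DESeq2 1.42.0, other filters, other sample sets, a replicate block and leaving out each library. Groups came from the labels. Replicate counts differed by more than sampling noise. The labels number replicates without naming separate cultures, so p-values measure the spread between these samples, which edgeR shares over genes. The paper describes splitting each transfected plate into further plates before actinomycin D, so time points of a condition may share a transfection. The main fits treated all libraries as separate. Intervals cover counting and replicate error of these libraries, and PCR duplicates were not removed.

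Members and lists were chosen with earlier results of these data known. Values per library were given for members past a log2 change of 0.3 at 0 h that did not overlap siControl, the 4 shortest and 4 longest half-lifetimes, the 3 largest slope differences per knockdown, and the INSIG, SREBF, ELOVL and FADS pairs. The 0 h values of other called members (DHCR7, MVD, TM7SF2, FASN) were added after they were seen, as were the contrasts at 3 and 6 h.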

Additional observations from a re-analysis of the deposited data

Results flagged for a closer look

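The following 7 differences between knockdowns at 0 h were singled out because the difference itself passed edgeR's quasi-likelihood test at a log2 size of at least 0.3. MSMO1 differed by 0.34 ± 0.055 between siIGF2BP1 and siIGF2BP2 cells (edgeR adjusted p = 1.19e-05) and by 0.55 ± 0.0559 between siIGF2BP1 and siIGF2BP3 cells (1.93e-09). IDI1 differed by 0.73 ± 0.055 between siIGF2BP1 and siIGF2BP2 cells (edgeR adjusted p = 4.77e-13) and by −0.62 ± 0.0552 between siIGF2BP2 and siIGF2BP3 cells (7.12e-11). INSIG2 differed by −0.48 ± 0.0679 between siIGF2BP1 and siIGF2BP2 cells (edgeR adjusted p = 1.24e-06). MVK differed by 0.31 ± 0.0703 between siIGF2BP1 and siIGF2BP3 cells (edgeR adjusted p = 0.00186), and DHCR7 by 0.39 ± 0.0505 between siIGF2BP2 and siIGF2BP3 cells (3.1e-07). A positive value is a higher level in the first knockdown named.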

How the results depend on the processing

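With ERCC scaling the members called at 0 h numbered 1 in each knockdown against siControl (8, 6 and 12 with TMM), 3 between siIGF2BP1 and siIGF2BP3, and 3 between siIGF2BP2 and siIGF2BP3. Taken at 3 or 6 h in place of 0 h, an alternative chosen after seeing the data, siIGF2BP2 gave 10 and 10 calls and siIGF2BP1 gave 13 at 3 h. Leaving out 1 library gave 3 to 5, 2 to 4 and 4 to 6 calls in siIGF2BP1, siIGF2BP2 and siIGF2BP3, 8 to 11 between siIGF2BP1 and siIGF2BP2, 7 to 9 between siIGF2BP1 and siIGF2BP3, and 4 to 9 between siIGF2BP2 and siIGF2BP3. Decay in siControl gave 20 to 29 calls (26 with all libraries), early against late loss 1 to 2 (18 with TMM scaling), and slope differences 0 to 0, with 1 in siIGF2BP2 and 1 in siIGF2BP3 when the change from 0 to 6 h was tested alone. With all libraries the median half-lifetime over members was 15.48, 16.82 and 11.97 h in siIGF2BP1, siIGF2BP2 and siIGF2BP3 cells. Median half-lifetimes without 1 library ran from 10.1 to 16.4 h in siControl, 13.2 to 15.3 h in siIGF2BP1, 13.6 to 17.0 h for siIGF2BP2, and 10.6 to 13.6 h for siIGF2BP3. From 0 and 3 h alone they were 13.1, 14.0 and 10.9 h in the knockdowns, from 0 and 6 h alone 13.7 h for siIGF2BP2 and 15.5 h for siIGF2BP3, and with TMM scaling 7.56, 13.7 and 16.1 h.

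All 33 siControl slopes were below 0 with spike-in scaling, and 26 turned above 0 with TMM scaling, namely SCD 0.84, ACSS2 0.81, LSS 0.70, PMVK 0.68, CYP51A1 0.10, ELOVL5 0.29, NPC1L1 0.34, MSMO1 0.0065, SREBF1 0.23, FDFT1 0.28, SC5D 0.48, HMGCS1 0.12, SCAP 0.48, ACAT2 0.60, ACLY 0.46, FADS2 0.73, EBP 0.63, FADS1 0.75, TM7SF2 0.62, FDPS 0.64, STARD4 0.14, MVD 0.51, FASN 0.47, DHCR7 0.80, SREBF2 0.59 and ACACA 0.38. With library size scaling 19 did, namely SCD 0.53, ACSS2 0.49, LSS 0.38, PMVK 0.36, NPC1L1 0.025, SC5D 0.16, SCAP 0.16, ACAT2 0.28, ACLY 0.14, FADS2 0.41, EBP 0.31, FADS1 0.43, TM7SF2 0.30, FDPS 0.32, MVD 0.19, FASN 0.15, DHCR7 0.48, SREBF2 0.27 and ACACA 0.064. These scalings set the median gene near −0.02 and −0.34 in place of −0.88.

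Same-numbered replicates did not deviate together (correlations −0.04 to 0.10 over 66 pairs of groups). A replicate block gave 8, 6 and 13 calls at 0 h, 26 for decay and 0 for each slope difference, and changed 1 single-member call of 208. Among values of single members, 2334 kept their direction and side of the threshold, 179 fell below it, 15 rose past it and 37 reversed, a count that leaves out the slopes of SCD, ACSS2, LSS and PMVK. With 2 replicates and a 6 h course, half-lifetimes far beyond 6 h were not measurable, and the smallest log2 change of a member called at 0 h was 0.10.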
